A study of Homo sapiens with 20 samples.

Results

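A stretch of human chromosome 5 near its short-arm end holds 7 genes that were followed here: NKD2, SLC6A19, SLC6A18, TERT, CLPTM1L, SLC6A3 and LPCAT1. They were taken because they lie side by side at 1.2 to 1.6 Mb of the hg19 build or just outside it, and because hormone-induced and unmoved genes alternate among them. They are 7 of the 27896 gene symbols in the count table, of which 16432 had enough reads to be tested. Among the members 6 passed that filter, and SLC6A18 did not. The members were chosen by their hormone responses in both kinds of cell (dex against vehicle), among other things, so these are given as a description with no test. The effects of BCOR depletion and the peaks nearby were not used to choose them. Even so, both groups of each depletion contrast also enter those hormone responses, so the depletion tests are not independent of the choice.

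HEK293-GR is a human embryonic kidney line in which the glucocorticoid receptor is expressed constitutively. All cells were kept in medium stripped of steroids, for 48 h per the labels. For RNA, cells received either a pool of siRNAs against the corepressor BCOR (siBCOR) or a non-targeting pool (siNON), both at 20 nM for 72 h, and then the synthetic glucocorticoid dexamethasone (dex) at 100 nM or ethanol (vehicle) for 6 h. This gave 4 groups of 4 poly(A) RNA libraries: siNON cells in vehicle or dex, and siBCOR cells in vehicle or dex. BCOR binding was mapped by ChIP-seq in HEK293-GR cells after 1 h of the same dex dose or ethanol, with 2 libraries per treatment, and no siRNA is given for those cells. A single siRNA pool was used against BCOR, so effects of that pool other than loss of BCOR cannot be told apart from it.

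The glucocorticoid receptor is a nuclear receptor that binds DNA once it has bound hormone and raises or lowers transcription of genes near or far from its sites. BCOR is a corepressor that acts with sequence-specific repressors such as BCL6 and in a Polycomb-type complex. Hormone-responsive genes often sit beside genes that do not respond, and a chromosomal neighbourhood with both allows their levels to be read in the same libraries. SLC6A19 and SLC6A18 encode sodium-dependent neutral amino acid transporters of the kidney tubule, the first also of the small intestine, and loss of SLC6A19 causes Hartnup disorder. SLC6A3 encodes the dopamine transporter, which clears dopamine from synapses of midbrain neurons.

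In hg19 the members follow one another along chromosome 5 as given here. NKD2 (NM_001271082) spans 1009077 to 1038927 on the plus strand, SLC6A19 (NM_001003841) spans 1201710 to 1225230 on the plus strand, and SLC6A18 (NM_182632) spans 1225470 to 1246304 on the plus strand, beginning 240 bp after the end of SLC6A19. TERT (NM_198253) spans 1253287 to 1295162, CLPTM1L (NM_030782) spans 1317859 to 1345185, SLC6A3 (NM_001044) spans 1392905 to 1445543 and LPCAT1 (NM_024830) spans 1461538 to 1524092, all on the minus strand. The start sites of SLC6A19 and SLC6A3 are 243.8 kb apart, with those of TERT and CLPTM1L between them. Whether the strand was used in counting is not given in the sources used here, but no member overlapped another named gene except LPCAT1, which holds the microRNA hairpin MIR6075.

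The promoters of the tandem transporters SLC6A19 and SLC6A18 are shown because these genes abut each other and differed in response. They are the 250 bases before each start site in RefSeq on GRCh38.p14, at chr5:1201345-1201594 and chr5:1225131-1225380, plus strand, 5′ to 3′. Capitals mark CG dinucleotides and any TATAAA.
SLC6A19: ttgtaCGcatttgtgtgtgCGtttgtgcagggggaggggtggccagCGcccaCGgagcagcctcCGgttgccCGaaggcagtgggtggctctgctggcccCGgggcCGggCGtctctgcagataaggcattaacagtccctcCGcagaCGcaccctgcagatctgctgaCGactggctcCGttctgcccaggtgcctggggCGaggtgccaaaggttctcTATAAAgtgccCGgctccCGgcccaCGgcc
SLC6A18: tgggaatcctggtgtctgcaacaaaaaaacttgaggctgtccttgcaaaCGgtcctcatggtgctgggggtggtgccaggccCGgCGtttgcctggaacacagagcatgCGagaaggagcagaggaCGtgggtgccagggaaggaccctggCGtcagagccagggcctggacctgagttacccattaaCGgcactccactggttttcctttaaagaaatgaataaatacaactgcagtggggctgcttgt

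The SLC6A19 promoter held TATAAA on its plus strand 30 bases before the start, a word found on either strand in 10.7% of the 35116 RefSeq promoters of the same length. The SLC6A18 promoter held none. SLC6A19 had 17 CG pairs, an observed-to-expected CG ratio of 0.626, and SLC6A18 had 7, a ratio of 0.377, against a median of 11 pairs and 0.558 over all promoters. The ratios of the promoters of genes with RNA in every library were higher, at 0.773 for TERT, 0.967 for CLPTM1L, 0.74 for LPCAT1 and 0.735 for NKD2. RefSeq's table matched 6 of the 7 members, all but SLC6A3. No matched promoter held the glucocorticoid response element, searched as AGAACA and TGTTCT with any 3 bases between them, which 0.00285% of all promoters hold, or AGAACA alone, which 12.4% hold, on either strand. Absence from this window says only that these letters are not there.

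Depth and identity of the libraries were as follows. Reads counted over the chosen transcripts ran from 18580294 to 28054808 per library. All 8 genes of a HEK293 list (such as NEFL, VIM and KRT18) had reads in every group, with a summed level of 1210 to 1600 CPM (reads scaled by effective library size). Of 12 proximal tubule markers, 8 or 9 had reads per group. In siNON vehicle LRP2 stood at 54.5, SLC3A1 at 12.6 and SLC5A2 at 12.1 CPM. SLC22A6 and SLC13A1 had 0 counts in all 16 libraries and SLC34A1 had 4. Of 9 dopamine neuron markers, 8 had reads per group, among them LMX1B (30.5 CPM in siNON vehicle), SLC18A2 (8.33) and FOXA2 (8.29). TH, a marker on that list that makes the dopamine precursor, had 0 counts throughout. BCOR stood at a mean of 196.1 CPM in siNON vehicle, 93.84 in siNON dex, 22.36 in siBCOR vehicle and 14.75 in siBCOR dex. The libraries least like their own group were siNON dex library 4 and siNON vehicle library 3, with mean correlations of 0.98864 and 0.98947 to their group, and they were left out together as a check chosen after seeing the data. The labels call the libraries biological replicates, and p-values measure the spread between them.

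SLC6A19 was the member with no reads before hormone. It had 0 counts in the 4 siNON vehicle and 0 in the 4 siBCOR vehicle libraries. Its levels in siNON dex were 13.16, 13.79, 12.48 and 10.2 CPM (294, 319, 293 and 182 counts). Those in siBCOR dex were 5.758, 4.376, 5.069 and 4.643 CPM (152, 124, 111 and 89 counts). The hormone-treated libraries were thus all above all vehicle libraries, and the siBCOR ones all below the siNON ones. Set against a floor of 3 counts over the vehicle group, SLC6A19 was at least 379-fold higher with dex in siNON cells and at least 145-fold higher in siBCOR cells. Of the tested genes 6 had 0 counts in all 8 vehicle libraries. Such a gene passes the filter only through its dex groups, so this set and its order are a description. SLC6A19 had 1564 counts in the 8 dex libraries, and the others, named after their values were seen, had 151 (TUBA3C), 120 (IGFBP1), 93 (CST4), 79 (MIR4457) and 75 (WFDC11).

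SLC6A18, whose transcript starts just past the end of SLC6A19, was at the edge of detection in every group. It had 1 count in siNON vehicle, 2 in siNON dex, 1 in siBCOR vehicle and 4 in siBCOR dex, each over 4 libraries. The floor of 3 counts per group corresponds to 0.0313 to 0.0346 CPM, so no fold was computed. No level of SLC6A18 above that floor was detected in the first 3 of these groups.

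SLC6A3, the dopamine transporter gene, had a few reads before hormone. It stood at 0.03981, 0.09675, 0.1269 and 0.04514 CPM in siNON vehicle (1, 2, 3 and 1 counts) and at 25.48, 29.04, 24.91 and 26.18 CPM in siNON dex. In siBCOR cells it had 0.1578, 0, 0.04945 and 0.1392 CPM in vehicle (4, 0, 1 and 3 counts) and 11.48, 10.48, 13.06 and 11.01 CPM in dex. The 3 levels (vehicle, siBCOR dex, siNON dex) did not overlap. Its log2 fold change with dex was 8.33 in siNON cells, a 322-fold rise, and 6.90 in siBCOR cells, a 119-fold rise. With so few vehicle reads these folds are imprecise, and no SE is given. Leaving out single libraries gave log2 values of 8.11 to 8.66 in siNON and 6.53 to 7.37 in siBCOR cells. By size of its rise SLC6A3 ranked 3 of 16432 in siNON cells and 7 in siBCOR cells.

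CLPTM1L, a membrane protein first linked to cisplatin resistance, was abundant throughout and shifted by a small amount. Its levels were 334.9, 308.8, 304.8 and 347.1 CPM in siNON vehicle and 435.2, 437.6, 423.9 and 402.8 CPM in siNON dex. In siBCOR cells they were 329.7, 334.8, 317.1 and 312 CPM in vehicle and 356.2, 353.1, 372.2 and 377.6 CPM in dex. Hormone and vehicle libraries did not overlap in either kind of cell. The log2 fold change was 0.39 ± 0.0531 (SE) in siNON cells and 0.17 ± 0.053 in siBCOR cells.

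TERT, the catalytic subunit of telomerase, did not separate by group. Its levels were 2.906, 3.918, 3.427 and 3.16 CPM in siNON vehicle and 3.403, 2.723, 3.62 and 3.364 CPM in siNON dex. In siBCOR cells it stood at 2.84, 3.568, 3.214 and 3.943 CPM in vehicle and 3.788, 3.388, 4.202 and 3.443 CPM in dex. All 4 groups overlapped, and the log2 fold change with dex was -0.03 ± 0.132 in siNON and 0.13 ± 0.129 in siBCOR cells. TERT starts 93.5 kb from the SLC6A19 start and 150.4 kb from that of SLC6A3.

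LPCAT1 and NKD2 flank the others. LPCAT1, an acyltransferase that makes phosphatidylcholine, including the form found in lung surfactant, stood at 150.1, 135.2, 119.9 and 140.4 CPM in siNON vehicle and 156.4, 145.8, 148.7 and 120.1 CPM in siNON dex. Its siBCOR levels were 128.1, 144.3, 138.8 and 139.4 CPM in vehicle and 131.9, 134.7, 136.6 and 121.2 CPM in dex. Groups overlapped, with log2 fold changes of 0.07 and -0.07 for dex in siNON and siBCOR cells, although its start lies 78.5 kb from that of SLC6A3. NKD2, which binds Dishevelled and restrains Wnt signalling, stood at 27.59, 21.33, 18.11 and 25.1 CPM in siNON vehicle and 20.6, 17.5, 20.14 and 16.82 CPM after dex. In siBCOR cells NKD2 was at 11.24, 22.66, 15.08 and 18.28 CPM in vehicle and 15.08, 16.48, 17.67 and 12.62 CPM in dex. NKD2 groups overlapped too, with log2 fold changes for dex of -0.29 and -0.11. The second was 0.06 without siBCOR vehicle library 2.

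**Figure D1:**
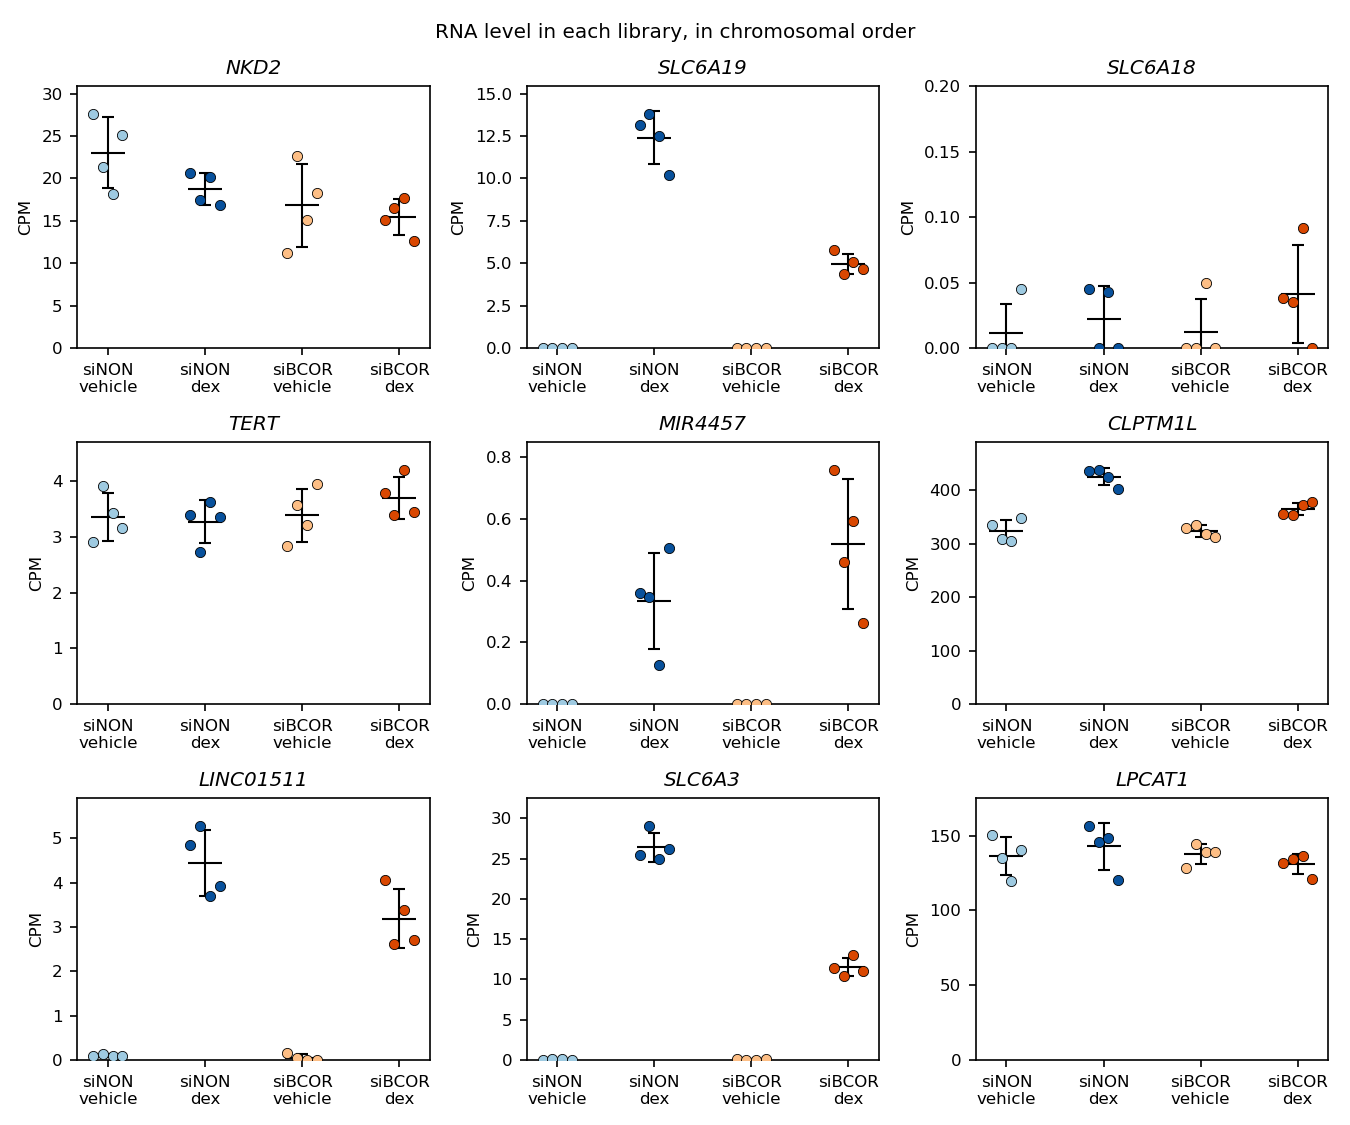
RNA level in CPM (vertical axes, linear and scaled per gene, starting at 0) in each library of the 4 groups, for the 7 members and 2 noncoding neighbours in chromosomal order. Points are libraries, and the bar and whiskers are the mean and SD of 4. SLC6A19, SLC6A3, LINC01511 and MIR4457 are at or near 0 in both vehicle groups, while TERT, LPCAT1 and NKD2 overlap between groups.

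In all, 3 of the 6 members that passed the filter (SLC6A19, CLPTM1L and SLC6A3) had every dex library above every vehicle library in both kinds of cell. Over all tested genes this held for 11.1% in siNON and 15.3% in siBCOR cells, and since the rule drew on these contrasts nothing is read from the count.

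Levels of different genes were compared per kilobase of transcript. In siNON vehicle the order in CPM per kb was CLPTM1L (132.1), LPCAT1 (34.53), NKD2 (11.2), TERT (0.8393), SLC6A3 (0.0197), SLC6A18 (0.00536) and SLC6A19 (0). In siNON dex it was CLPTM1L (173.3 ± 6.48, SD, n = 4), LPCAT1 (36.14 ± 3.99), NKD2 (9.12 ± 0.915), SLC6A3 (6.74 ± 0.468), SLC6A19 (2.41 ± 0.303), TERT (0.820 ± 0.0967) and SLC6A18 (0.0104). Hormone thus placed both induced transporters above TERT and below NKD2. In siBCOR dex SLC6A3 stood at 2.94 ± 0.284, and SLC6A19 at 0.962 ± 0.117 did not differ beyond its spread from TERT at 0.927 ± 0.0939 CPM per kb.

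BCOR depletion without hormone was then compared (siBCOR vehicle against siNON vehicle). None of the 6 members passed a 0.05 false discovery rate in edgeR's quasi-likelihood test, against 17.1% of all tested genes, and 1 of them had an unadjusted p under 0.05, against 31% of all tested genes. That was NKD2, with a log2 fold change of -0.46 ± 0.174 (95% interval -0.826 to -0.09, edgeR adjusted p = 0.0808). NKD2 passed the threshold without siNON vehicle library 3 (-0.61, adjusted p = 0.0235), without siBCOR vehicle library 2 (-0.64, adjusted p = 0.0121), and with siNON vehicle library 3 and siNON dex library 4 both left out (-0.61, adjusted p = 0.0144). The interval for TERT was -0.259 to 0.293 on the log2 scale. For SLC6A3, with 7 and 8 counts in the groups compared, the interval ran from -1.08 to 1.55, and so few counts make it too narrow. SLC6A19 had no counts on either side and no value, so although it is among the 6 it could not have been called.

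BCOR depletion in the presence of dex lowered both induced transporters and CLPTM1L. In this comparison 3 of the 6 members were called, all lower, against 18.8% of all tested genes called lower and 20.7% called higher. The same 3 members had every siBCOR dex library below every siNON dex library, which held for 17.6% of all genes. SLC6A19 fell from a mean of 12.41 ± 1.56 to 4.96 ± 0.603 CPM (SD, n = 4), a log2 fold change of -1.32 ± 0.124 or 2.5-fold (95% interval -1.59 to -1.06, edgeR adjusted p = 3e-05). SLC6A3 fell from 26.4 ± 1.83 to 11.51 ± 1.11 CPM, a log2 fold change of -1.20 ± 0.112 or 2.3-fold (interval -1.44 to -0.963, edgeR adjusted p = 1.72e-06). The intervals of both transporters overlapped widely. Of 16432 tested genes 50 had a lower log2 fold change than SLC6A19 and 82 a lower one than SLC6A3. The levels of SLC6A19 with BCOR and hormone were known when the members were picked.

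CLPTM1L moved less. It fell from 424.9 ± 15.9 to 364.8 ± 12 CPM with depletion in dex, a log2 fold change of -0.22 ± 0.053 (interval -0.332 to -0.108, edgeR adjusted p = 0.00503). TERT had 0.18 ± 0.129 (interval -0.0963 to 0.45, adjusted p = 0.281), LPCAT1 -0.12 ± 0.0811 (adjusted p = 0.233) and NKD2 -0.28 ± 0.176 (adjusted p = 0.212), all in the same edgeR fit. LPCAT1 was called without siNON dex library 4 (-0.20, adjusted p = 0.0313) and with siNON vehicle library 3 left out as well (-0.24, adjusted p = 0.00466). NKD2 was called when only these 2 groups were fitted (-0.30, adjusted p = 0.043).

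**Figure D2:**
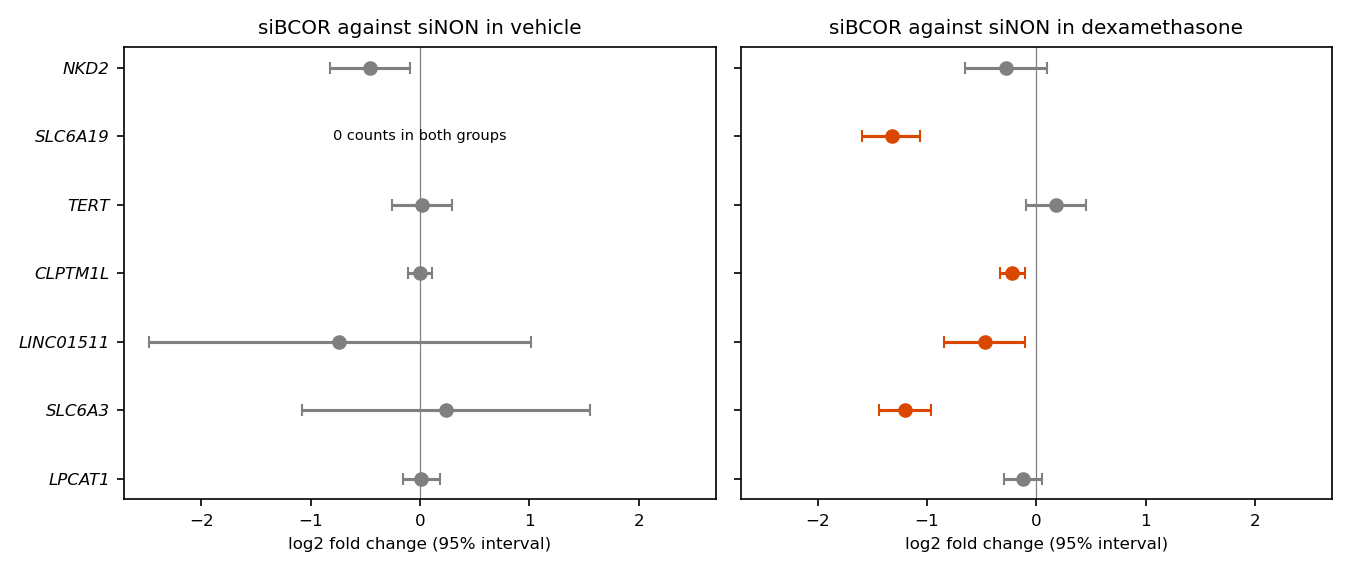
Log2 fold change (horizontal axis) of siBCOR against siNON cells in vehicle (left) and in dexamethasone (right) for 6 members and LINC01511, with 95% intervals from edgeR. Orange marks an adjusted p under 0.05: SLC6A19 (-1.32), SLC6A3 (-1.20), CLPTM1L (-0.22) and LINC01511 (-0.47), all in dexamethasone. With few reads, the SLC6A3 interval in vehicle is too narrow.

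Whether the hormone response itself differed between siBCOR and siNON cells was tested by the interaction. None of the 6 members was called by edgeR, against 0.0974% of tested genes (16 genes), and 1 had an unadjusted p under 0.05, against 19.3% of tested genes. This was CLPTM1L, at -0.22 ± 0.075 on the log2 scale (interval -0.376 to -0.0596, edgeR adjusted p = 0.215). It passed the threshold without siNON dex library 4 (-0.24, adjusted p = 0.0437), and without that library 2537 genes in all were called for the interaction. SLC6A3 gave -1.43 ± 0.673 (edgeR adjusted p = 0.261), an SE that is large and still understated with so few vehicle counts. TERT gave 0.16 (adjusted p = 0.606), LPCAT1 -0.14 (adjusted p = 0.477) and NKD2 0.18 (adjusted p = 0.673) in the same edgeR fit. For SLC6A19, with no reads in vehicle, the interaction could not be estimated, so although it is among the 6 it could not have been called. The lower dex level of the transporters after depletion is therefore measured, and a changed fold of induction is not shown.

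The window also holds 5 other named genes, and 2 of them, LINC01511 and MIR4457, stood more than 2-fold higher with dex. LINC01511 (NR_125810, chromosome 5, 1363697 to 1380188, minus strand) is a long noncoding RNA gene between CLPTM1L and SLC6A3. It stood at 0.07963, 0.1451, 0.08462 and 0.09029 CPM in siNON vehicle and at 4.836, 5.273, 3.705 and 3.924 CPM in siNON dex. In siBCOR cells it stood at 0.1578, 0.04822, 0 and 0 CPM in vehicle and 4.054, 2.612, 3.379 and 2.713 CPM in dex. It was named for this change and passed the filter through its dex groups, so the hormone response is a description. Its log2 fold changes were 5.42 in siNON and 5.68 in siBCOR cells, given without an SE because vehicle reads were few. No library of one treatment overlapped the other. The siBCOR vehicle group held only 5 counts of LINC01511, and without its library 1 the siBCOR value was 7.22. Depletion in dex lowered LINC01511 (log2 fold change -0.47 ± 0.177, edgeR adjusted p = 0.0426), with overlapping libraries. That call was lost in 7 of 24 alternatives, where the adjusted p over all 24 ran from 0.0138 to 0.144. The call was lost without siNON dex library 1 (-0.43, adjusted p = 0.107) or 2 (-0.38, adjusted p = 0.144), without siBCOR dex library 2 (-0.38, adjusted p = 0.127), 3 (-0.50, adjusted p = 0.0628) or 4 (-0.41, adjusted p = 0.108), without siNON vehicle library 4 (-0.47, adjusted p = 0.0515), and with transcripts summed (-0.485, adjusted p = 0.0747).

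MIR4457 is a microRNA hairpin interval (chromosome 5, 1309425 to 1309492, minus strand) between TERT and CLPTM1L. Poly(A) libraries do not measure the mature microRNA, so the values are reads of longer RNA over this interval. It had 0 counts in all 8 vehicle libraries, 8, 8, 3 and 9 counts in siNON dex, and 20, 13, 13 and 5 counts in siBCOR dex. Against 3 counts over the vehicle group this was at least 10.2-fold higher in siNON and at least 15.2-fold higher in siBCOR cells, given without a test for the same reason. After depletion in dex the MIR4457 interval was not called (0.70 ± 0.401, adjusted p = 0.18), while SLC6A19 and SLC6A3 fell.

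Over a wider range most responses were small. Of 36 other symbols at 0 to 2.7 Mb of chromosome 5, those of the window included, 27 were tested. In siNON cells dex raised 3 of them (background 10.7%) and lowered 4 (background 8.64%), and in siBCOR cells it raised 3 (background 10.5%) and lowered 8 (background 12.5%). LINC01511 and MIR4457 are 2 of the 3 raised in both. They passed the filter through their dex groups, so nothing is read from the counts of genes raised. The median log2 fold change of the 27 was -0.0333 in siNON and -0.063 in siBCOR cells, against -0.00443 and 0.00349 over all tested genes. The third gene that rose in both was LOC728613, which also reaches into the window, by 0.49 in siNON and 0.40 in siBCOR cells. Apart from LINC01511 and MIR4457, none of those called reached a 2-fold change in either. In siNON cells 394 genes were called and at least 2-fold higher with dex (2.4% of those tested). Of these, 120 or 30.5% had another such gene within 250 kb, as SLC6A19 and SLC6A3 do. The share of all tested genes with such a gene that near was not computed, so nothing is read from the 30.5%.

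**Figure D3:**
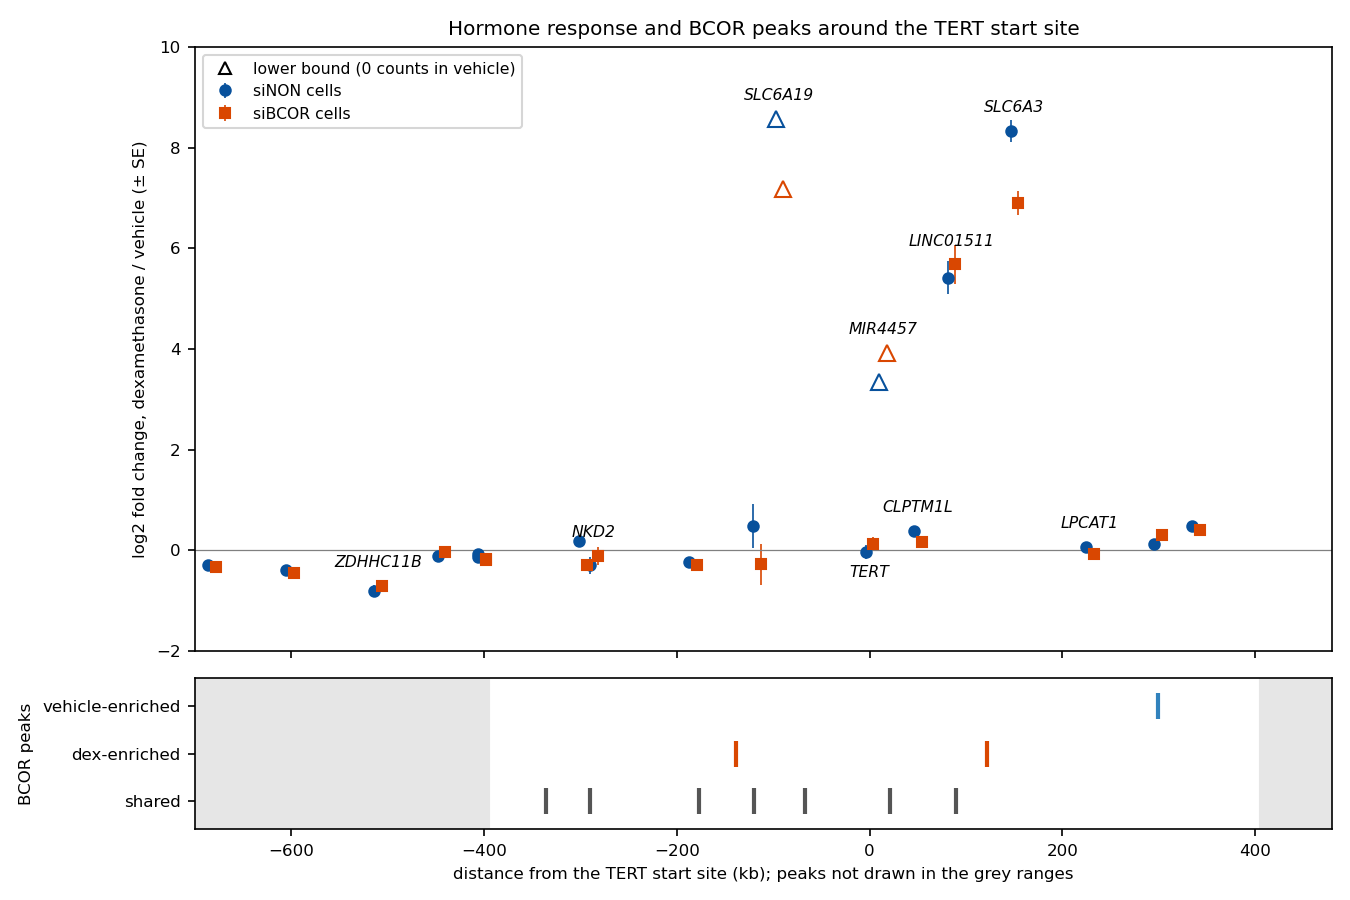
Upper panel: log2 fold change (dexamethasone against vehicle, ± SE) of each tested gene at its distance in kb from the TERT start site, in siNON (blue) and siBCOR cells (orange), with the colours moved 4 kb to each side for legibility and triangles for lower bounds. The SE bars of SLC6A3 and LINC01511 understate the error, as their vehicle reads are few. Lower panel: BCOR peaks by class, drawn for 0.9 to 1.7 Mb only. SLC6A19, MIR4457, LINC01511 and SLC6A3 stand above 3 on the log2 scale within 250 kb, among genes near 0.

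BCOR peaks were placed against these genes. The 1.2 to 1.6 Mb window held 5 peaks, of which 3 are in the list shared by both treatments, 1 is dex-enriched and 1 vehicle-enriched. The dex-enriched peak, at 1416692 to 1417026, lies inside SLC6A3, 28.7 kb downstream of its start. The shared peaks lie at 1227735 to 1228069 inside SLC6A18, 2.4 kb downstream of its start, at 1316411 to 1316856, 7.1 kb upstream of MIR4457 and 21.5 kb upstream of TERT, and at 1384431 to 1384938, 4.5 kb upstream of LINC01511. The vehicle-enriched peak, at 1594422 to 1594740, lies 0.1 kb from the start of the pseudogene SDHAP3, 70.5 kb upstream of LPCAT1. No peak of any class overlapped a start site of a member.

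A wider range of 0.9 to 1.7 Mb added 5 peaks. One of these was dex-enriched, at 1156917 to 1157251, 44.6 kb upstream of SLC6A19. A shared peak at 1004842 to 1005176 lies 4.1 kb upstream of NKD2, and the other shared ones were at 959432 to 959810, 1118323 to 1118657 and 1174787 to 1175105, the last 26.8 kb upstream of SLC6A19.

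SLC6A19 and SLC6A3 were the 2 of 7 members with a dex-enriched peak within 50 kb of the start site, against 13.5% of all tested genes and 43.4% of the 394 genes at least 2-fold higher with dex. The nearest dex-enriched peak was 68.4 kb from SLC6A18, 71.7 kb from CLPTM1L, 107.2 kb from LPCAT1, 121.7 kb from TERT and 148.0 kb from NKD2. Within 10 kb no member had one, against 4.08% of tested and 25.1% of induced genes. Within 100 kb 4 of the 7 had one, SLC6A18 and CLPTM1L as well, against 23.5% of tested and 54.8% of induced genes. Of the noncoding neighbours higher with dex, LINC01511 lay 36.7 kb and MIR4457 107.4 kb from the nearest dex-enriched peak. A shared peak lay within 50 kb of 5 of the 7 members, against 47.7% of tested genes, and TERT, CLPTM1L and NKD2, which have one, include genes that did and did not respond. The window held 7.5 shared peaks per Mb against 2.78 over all windows, and 15.6% of 7723 windows of 0.4 Mb held as many. One dex-enriched peak or more was in 25.0% of windows and one vehicle-enriched peak or more in 3.33%. The peaks were mapped at 1 h and the RNA at 6 h, and which gene a peak acts on was not tested.

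Genes whose RNA followed the same course over the 16 libraries were found by Pearson's r of log2 CPM with each induced transporter. All 16 points share the hormone split, so such values are high for any strongly induced gene. For SLC6A19 the highest were APOLD1 (0.997), SLC2A3 (0.996), C6orf223 (0.996), FKBP5 (0.995) and PLEK2 (0.995), and the value with SLC6A3 was 0.994. For SLC6A3 they were LOC100506585 (0.996), NUDT16 (0.994), FKBP5 (0.993), CRY2 (0.993) and LINC01647 (0.993). Like both transporters, APOLD1 was lower in siBCOR than in siNON cells under dex, at 187 against 368 CPM, while NUDT16 stood at 106 against 118 CPM.

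Relatives of the transporters were taken from the SLC6 family, and values from here on are log2 fold changes unless a unit is given. Of 16 other SLC6 family genes 11 were tested, and in siNON cells dex raised 1 and lowered 2 (10.7% and 8.64% of all tested genes). The one that rose was the taurine transporter SLC6A6 (1.27 ± 0.0843, edgeR adjusted p = 3.16e-09). Those that fell were the glycine transporter SLC6A9 (-0.80 ± 0.247, edgeR adjusted p = 0.0302) and SLC6A15, which carries branched-chain amino acids (-0.31, adjusted p = 0.0122). The median of the 11 was -0.0345. Under dex, depletion lowered 5 of the 11 and raised none (18.8% and 20.7% of all tested genes), with a median of -0.24 against 0.0247 over all tested genes. They were SLC6A8, the creatine transporter (-0.53), SLC6A17 (-0.76), SLC6A6 (-0.35), SLC6A11 (-0.27) and SLC6A9 (-0.69). In vehicle, depletion lowered 2 of the 11, SLC6A8 (-0.32) and SLC6A17 (-0.41), and raised none, against 17.1% of all tested genes called in either direction.

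Genes that work with the unmoved members were counted as well. For these counts, 10.7% of all tested genes rose and 8.64% fell with dex in siNON cells, and 20.7% rose and 18.8% fell with depletion in dex. Of 19 tested telomere genes other than TERT, dex in siNON cells raised 1 (TERF2, 0.28) and lowered 2 (DKC1, -0.24, and NAF1, -0.27). Depletion in dex raised 1 of the 19 (TERF1, 0.41) and lowered 6, among them the shelterin gene TERF2 (-0.73, edgeR adjusted p = 4.96e-07), CTC1 (-0.56) and TINF2 (-0.21). In vehicle, depletion raised none of the 19 and lowered 1, TERF2 (-0.45), against 17.1% of all tested genes called in either direction. The Wnt list held 15 genes other than NKD2, among them TGFA, which is not a Wnt pathway gene. In siNON cells dex raised 1 of the 15, the related NKD1 (0.47), and lowered 5, led by LGR5 (-1.80) and RNF43 (-0.70). Depletion in dex raised 2 of the 15 and lowered 3. Of 14 lipid genes related to LPCAT1, dex in siNON cells raised 3 (AGPAT1, MBOAT2 and PCYT1A) and lowered none, and depletion in dex raised 1 and lowered 4. The medians of the telomere, Wnt and lipid lists under depletion in dex were -0.145, -0.053 and -0.0719.

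Markers of the tissues in which SLC6A19 and SLC6A3 are normally found were read against the same shares of all tested genes, which for dex in siBCOR cells were 10.5% higher and 12.5% lower. The proximal tubule marker LRP2, an endocytic receptor, fell with dex in siNON cells (-0.67, edgeR adjusted p = 1.6e-05). The summed level of the 12 proximal tubule markers ran from 73.9 to 87.2 CPM in siNON vehicle and from 61.9 to 63.2 CPM in siNON dex. Of 7 tested dopamine neuron genes none rose and 3 fell in siNON cells (NR4A2, LMX1B and FOXA2). In siBCOR cells SLC18A2, the vesicular monoamine transporter, rose (1.24, edgeR adjusted p = 0.000339) and the same 3 fell. Of 12 classical glucocorticoid targets 10 rose in each kind of cell, FKBP5 by 2.33 and 2.20. Under dex, depletion raised 3 of those 12, among them KLF9 (0.743) and PDK4 (0.595). It lowered 3, among them CDKN1C (-1.28) and FKBP5 (-0.241). The fall of CDKN1C was of the size seen for SLC6A19 and SLC6A3, and that of FKBP5 was smaller.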

How the data were processed

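RNA was read in 16 poly(A) libraries and BCOR binding in peak lists from 4 ChIP-seq libraries. The deposited counts are raw exon reads for 65572 RefSeq transcripts on hg19, made with HOMER without adjustment, per the file headers. The command in the header names no strand option, the column names end in _flip, and what that means for strand is not given in the sources used here. Tools named in the submitters' processing notes are Bowtie 0.12.9, HOMER 4.10.3, bedtools, FastQC, TopHat2 and Trimmomatic. Every score in the deposited peak lists is 0, so only positions were used. The criterion for the 3 peak classes is not given in the sources used here.

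The transcript with the most reads stood for each symbol. The 134 unnamed transcripts (0.0664% of counts) were left out. After edgeR's default filter 16432 genes were fitted with 4 group means, TMM scaling and quasi-likelihood tests (edgeR 4.0.16, limma 3.58.1, R 4.3.3), two-sided, with Benjamini-Hochberg adjustment over all genes and a threshold of 0.05. DESeq2 1.42.0 was an alternative. Totals over the chosen transcripts were 18580294 to 28054808, and floors cover counting error only. The series text names 3 replicates for RNA, while 4 are labelled and were used.

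The members, gene lists and tests were chosen with earlier results of these data known. All members were named. The rule also named the 5 genes most like SLC6A19 and SLC6A3, neighbours that changed at least 2-fold with dex, and up to 4 called genes per list by adjusted p. LOC728613, the fall of SLC6A9 with depletion in dex and the other genes at 0 counts in vehicle were named after their values were seen. So were the proximal tubule and dopamine neuron markers named for their counts or levels. Motifs were searched on both strands. Alternatives were other scalings, no filter, summed transcripts, fitting 2 groups, a replicate block, DESeq2, leaving out each library, and other peak windows. Results for some genes of the lists are not reported here.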

Additional observations from a re-analysis of the deposited data

How the results depend on the processing

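The falls of SLC6A19, SLC6A3 and CLPTM1L with depletion in dex stayed past the threshold in all 24 alternatives, from -1.44 to -1.26, -1.26 to -1.15 and -0.286 to -0.205 on the log2 scale. The members called in vehicle went from 0 to 0 to 1 when single libraries were left out, and to 1 with siNON vehicle library 3 and siNON dex library 4 both out. Members called for the interaction went from 0 to 0 to 1. Peaks numbered 5 in the window, 10 at 0.9 to 1.7 Mb, 8 within 50 kb and 2 within 10 kb of a member's start.

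Uncalled values near 0 changed sign. For depletion in vehicle TERT gave -0.0156 with DESeq2 size factors, -0.00875 with upper-quartile scaling, -0.00669 with no filter, -0.00441 with summed transcripts, -0.0159 with DESeq2 and -0.0224 without both libraries, and LPCAT1 gave -0.0207, -0.0139, -0.0131, -0.00689, -0.0207 and -0.0962. Leaving out single libraries gave -0.0648 to 0.0991 for TERT, -0.096 to 0.0621 for LPCAT1, -0.0828 to 0.0326 for CLPTM1L and -0.239 to 0.604 for SLC6A3, and -0.111 to 1.79 for the LINC01511 interaction. Hormone values near 0 changed sign as well: TERT in siNON cells ran from -0.0945 to 0.0528, LPCAT1 in siNON cells from -0.00769 to 0.14 and NKD2 in siBCOR cells from -0.27 to 0.0633. The cause was not tested.

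Over all genes, calls for depletion in vehicle went from 2809 to 1526 with 2 groups fitted and to 1810 without siBCOR vehicle library 1, and calls for depletion in dex from 6489 to 4198 without siNON dex library 3. Interaction calls went from 16 to between 2 and 2537 without single libraries, 1785 without both, 96 by DESeq2, 5 with DESeq2 size factors or no filter, 6 with upper-quartile scaling and 4 with summed transcripts.

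Replicate numbers did not pair the libraries: of 24 same-number pairs 6 correlated over 0.1 (median -0.0071), and 4 of 16 libraries correlated best with their own number. With the replicate block 0 members were called in vehicle, 3 in dex and 0 for the interaction, and 3 genes in all for the interaction. Depth limits the SLC6A18 values and the vehicle levels of SLC6A3.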
